A study of Mus musculus with 9 samples.

Results

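Glucocorticoid-responsive genes were read here in the mouse forebrain after 4 weeks of antipsychotic treatment, through 9 genes: Sgk1, Fkbp5, Tsc22d3, Nfkbia, Cdkn1a, Klf9, Mt1, Mt2 and Nr3c1. Every probe set that the array's annotation assigns to one of these symbols alone was taken, which gave 12 of the 12488 probe sets in the table and all 9 genes of the 8251 that have a probe set of their own. Nfkbia, Cdkn1a and Klf9 had 2 probe sets each and the other 6 genes had 1. The arrays were Affymetrix U74Av2, and the values are the authors' log2 GCRMA values, in which 1 unit is a doubling of signal.

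The clozapine group held 3 arrays from male C57BL mice, an inbred laboratory strain, that drank clozapine at 12 mg/kg/day, and the haloperidol group held 3 arrays from mice that drank haloperidol at 1.6 mg/kg/day. The control group held 3 arrays from mice without a drug. All mice were labelled as 4 weeks old, were kept singly, had 2 weeks of acclimatisation before the 4 weeks of treatment, and were killed by cervical dislocation, and each array held RNA of 1 animal. Clozapine is an atypical and haloperidol a typical antipsychotic, and the study set their long-term profiles in the brain side by side at doses that differ. The labels name the right side in some entries and the left in another, so the side of the brain was not settled, and no hour of death is given in the sources used here.

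In rodents the adrenal steroid corticosterone enters cells and binds the glucocorticoid receptor, encoded by Nr3c1, which is held ready by heat shock chaperones. The bound receptor moves to the nucleus and switches genes on, often by sitting as a pair on a palindromic DNA sequence, the glucocorticoid response element (GRE). Its targets include brakes on the receptor itself (Fkbp5), kinases (Sgk1), inhibitors of inflammation (Tsc22d3, Nfkbia), a cell cycle inhibitor (Cdkn1a), a transcription factor of neurons (Klf9) and the metal-binding metallothioneins (Mt1, Mt2). Stress hormone release follows the time of day and acute handling, so these genes are commonly read together as a sign of recent hormone exposure.

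RefSeq promoter windows of build GRCm38.p6, 300 bases from 250 before to 50 after an annotated start, were found for 8 of the 9 members, 16 windows in all. The paired GRE was searched as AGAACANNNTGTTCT, which reads the same on both strands. It was in 1 of the 16 windows, at an Sgk1 start, and in 3 of all 32851 windows, 0.00913%. Sgk1 has 6 annotated windows, and that one, chr10:21993640-21993939 on the plus strand, is shown because it carries the classic receptor sequence, in capitals, at bases 189 to 175 before the start.
Sgk1: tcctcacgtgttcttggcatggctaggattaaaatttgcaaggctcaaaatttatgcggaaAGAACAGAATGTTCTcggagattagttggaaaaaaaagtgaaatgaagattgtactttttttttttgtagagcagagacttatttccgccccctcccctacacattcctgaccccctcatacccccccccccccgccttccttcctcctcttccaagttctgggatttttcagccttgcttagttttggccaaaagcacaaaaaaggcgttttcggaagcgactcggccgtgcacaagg
The metallothionein genes are neighbours on chromosome 8 and are also switched on by metals through the metal response element (MRE), searched as TGCACNC or TGCGCNC on both strands. The windows of Mt1, chr8:94178839-94179138, and Mt2, chr8:94172368-94172667, both on the plus strand, are shown because they hold 3 and 4 such matches, in capitals, none of which overlap. At least 3 matches were in 1.97% of all windows and at least 4 in 0.517%.
Mt1: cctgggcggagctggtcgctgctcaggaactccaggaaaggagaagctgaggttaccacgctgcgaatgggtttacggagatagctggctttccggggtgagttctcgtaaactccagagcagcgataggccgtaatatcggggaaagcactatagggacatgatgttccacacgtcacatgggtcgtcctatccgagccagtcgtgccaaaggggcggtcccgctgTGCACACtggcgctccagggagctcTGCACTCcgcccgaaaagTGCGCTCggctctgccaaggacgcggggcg
Mt2: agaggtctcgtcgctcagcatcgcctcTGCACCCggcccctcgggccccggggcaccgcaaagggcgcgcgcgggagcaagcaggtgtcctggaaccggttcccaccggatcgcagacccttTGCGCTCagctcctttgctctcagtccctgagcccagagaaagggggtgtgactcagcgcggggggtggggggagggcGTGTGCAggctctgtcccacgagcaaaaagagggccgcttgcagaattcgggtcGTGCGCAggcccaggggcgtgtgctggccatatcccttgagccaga
Neither window held the single arm of the GRE, TGTTCT, on either strand, which 19% of all windows held. The windows of Fkbp5, Klf9, Nfkbia and Cdkn1a held none either, and 1 of the 3 Tsc22d3 windows and 2 of the other Sgk1 windows did. These are matches of letters within 300 bases, and the elements of many receptor targets lie farther away.

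No member differed between the treatment groups beyond the threshold. For testing, a probe set had to average above 3.45 over all 9 arrays, and 9 of the 12 member probe sets, from 7 of the 9 genes, did. Limma fitted 7453 probe sets. At an adjusted p of 0.05 it called 0 of the 9 member probe sets in each of the 3 comparisons, with 0% called among all 7453. At an unadjusted p under 0.05 it had 0 of 9 for clozapine against control, beside 0.939% of all tested, and 1 of 9 for haloperidol against control, beside 9.12%. For clozapine against haloperidol it had 0 of 9, beside 3.64%. With 1 probe set a gene, 4 of 7 genes lay above and 3 below the controls with clozapine (49.5% and 50.5% of all tested probe sets), and likewise 4 and 3 with haloperidol (46.4% and 53.6%). Of the 7 genes, 6 were higher with clozapine than with haloperidol and 1 was lower (56.4% and 43.6%). The median difference of the 7 genes was 0.17 with clozapine and 0.15 with haloperidol, beside -0.00125 and -0.02 over all tested probe sets. Both comparisons use the same 3 controls. The moderated F test over the 3 groups called 0% of the 7453 probe sets and 0 of the 9 member probe sets, and 251 of all tested had an unadjusted p under 0.05.

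**Figure D1:**
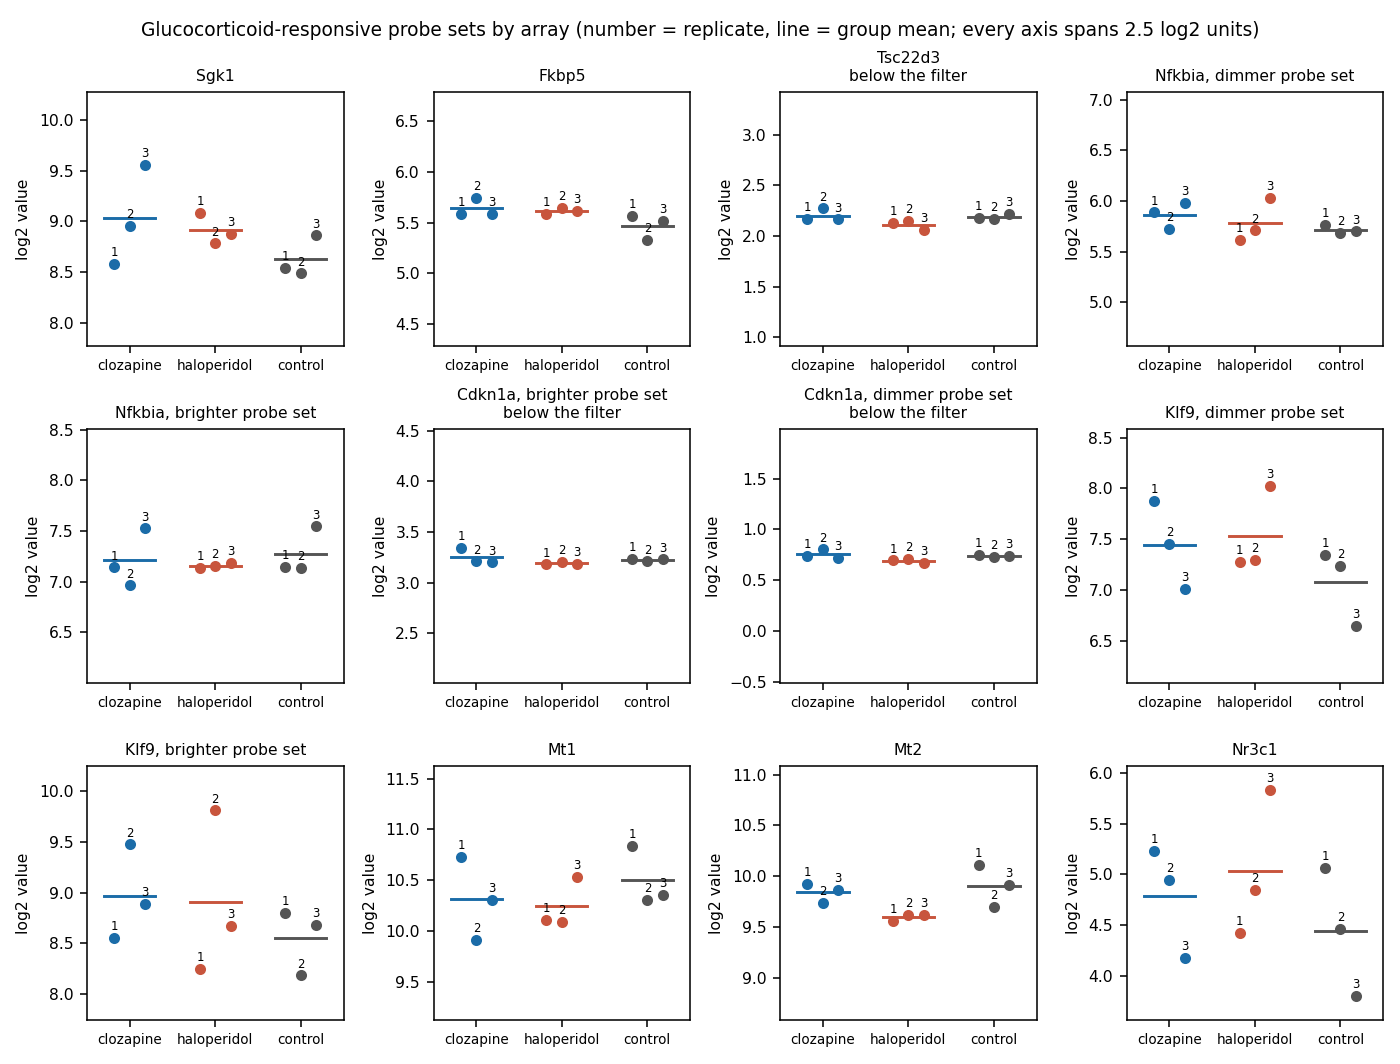
Log2 values of all 12 member probe sets on each array, clozapine left, haloperidol in the middle and control right, with replicate numbers beside the points and group means as lines. Every axis spans the same number of log2 units, so that the wide scatter of Nr3c1 and Klf9 and the narrow band of Tsc22d3 and Cdkn1a can be compared by eye.

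The receptor gene itself varied between animals of each group about as much as between the group means, or more. Nr3c1 had 5.23, 4.94 and 4.18 log2 units in clozapine arrays 1 to 3, 4.42, 4.85 and 5.83 in haloperidol arrays, and 5.06, 4.46 and 3.80 in control arrays. The 3 groups overlapped, with haloperidol 3 highest and control 3 lowest, 2.04 units apart. Clozapine lay 0.35 ± 0.46 above control (SE, n = 3 per group; 95% confidence interval -0.70 to 1.40) and haloperidol 0.59 ± 0.46 above (-0.46 to 1.64), with limma adjusted p of 1 and 0.711. Without control 3 these differences were 0.02 and 0.27, and without control 1 they were 0.66 and 0.91. Without haloperidol 3 the haloperidol difference was 0.19.

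The order of the animals in Nr3c1 followed the main axis of variation of the whole array set. The first principal component of the 7453 probe sets held 50.1% of the variance. Control 3 lay at a score of 37.5, clozapine 1, haloperidol 3 and control 1 at -17.6, -19.8 and -19.6, and the other 5 arrays between these 2 ends. The 3 arrays with negative scores, 1 of each treatment, had the 3 highest Nr3c1 values, and control 3 had the lowest. Control 3 also had the widest gap between 3′ and 5′ control probe sets of actin and Gapdh, 1.73 log2 units, with 0.814 to 1.46 in the other 8. A wide gap goes with shortened RNA or incomplete copying. Camk2a, a kinase of forebrain excitatory neurons, ran in a like order, with 9.42, 7.45 and 7.44 in clozapine, 7.49, 8.01 and 8.36 in haloperidol and 8.99, 6.69 and 3.87 in control arrays. It was highest in the 3 arrays with negative scores and lowest in control 3, and its group means lay 1.58 above control with clozapine and 1.43 with haloperidol (limma adjusted p = 1 and 0.728). Neurod6, the other forebrain marker tested, did not share this order. It read 6.41 in control 3, its highest value, and 5.94 in clozapine 1. The part of the axis, the gap or forebrain content in the Nr3c1 and Klf9 values was not tested. Among the 3 arrays with negative scores, Nr3c1 was 5.23 with clozapine, 5.83 with haloperidol and 5.06 in control. With those 3 arrays left out together the differences from control were 0.43 and 0.50.

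**Figure D2:**
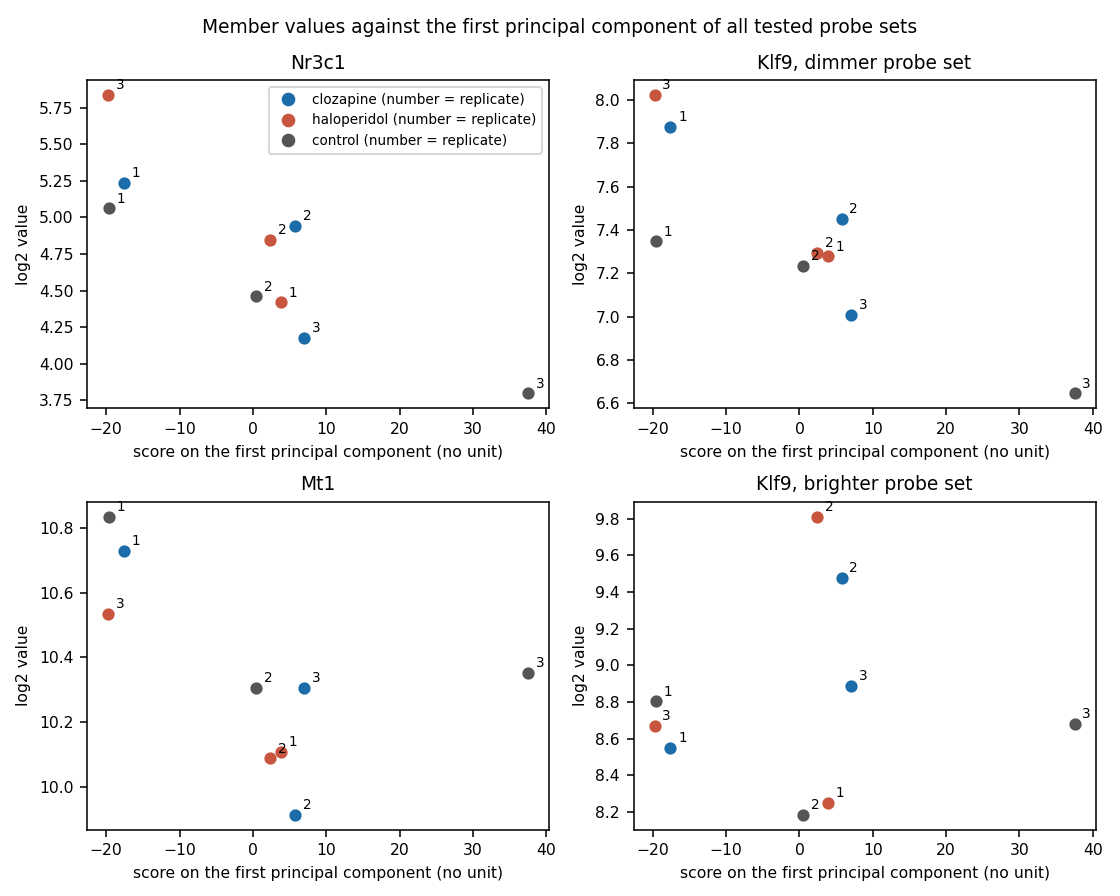
Log2 values of Nr3c1, both Klf9 probe sets and Mt1 (y axis) against each array's score on the first principal component (x axis, no unit), with 1 point per array coloured by treatment. Nr3c1 and the dimmer Klf9 probe set are lowest in control 3, at the right, and highest in haloperidol 3, at the left, whereas the brighter Klf9 probe set peaks in haloperidol 2 and clozapine 2.

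Fkbp5, the co-chaperone that lowers the receptor's affinity for hormone and is among the most used readouts of receptor activity, had small differences in the same direction for both drugs. Its values were 5.59, 5.75 and 5.59 in clozapine arrays, 5.58, 5.65 and 5.62 in haloperidol arrays, and 5.57, 5.33 and 5.52 in control arrays. All 6 treated arrays lay above all 3 controls, but the lowest treated value, 5.58, and the highest control, 5.57, nearly touched. Clozapine arrays clear of the controls on the upper side were found for 1.27% of all tested probe sets, and haloperidol arrays for 2.29%. The difference was 0.17 ± 0.09 with clozapine (SE, n = 3 per group; -0.04 to 0.38; limma adjusted p = 1) and 0.15 ± 0.09 with haloperidol (-0.06 to 0.36; adjusted p = 0.636), folds of 1.12 and 1.11. Without control 2 the differences were 0.10 and 0.08. Between the drugs Fkbp5 differed by 0.02 ± 0.09 (-0.19 to 0.23).

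Sgk1, a kinase that regulates ion channels and is also abundant in oligodendrocytes, had group means above the controls with both drugs. It had 8.58, 8.95 and 9.56 in clozapine arrays, 9.08, 8.78 and 8.87 in haloperidol arrays, and 8.54, 8.49 and 8.86 in control arrays. Clozapine 3 was the highest of the 9, clozapine 1 lay among the controls, and both drug groups overlapped the control range. The clozapine difference was 0.40 ± 0.24 (SE, n = 3 per group; -0.14 to 0.94; limma adjusted p = 1), a fold of 1.32, and the haloperidol difference 0.28 ± 0.24 (-0.26 to 0.83; adjusted p = 0.736), a fold of 1.22. The clozapine difference was 0.13 without clozapine 3 and 0.63 without clozapine 1, and the haloperidol difference was 0.20 without haloperidol 1. The 5 tested oligodendrocyte markers of 6 listed had mean levels, relative to the 9-array mean, between -0.0033 and 0.171 in clozapine, -0.142 and -0.015 in haloperidol and -0.181 and 0.0996 in control arrays. In clozapine 3, where Sgk1 was highest, the marker level was -0.0033. The part of oligodendrocyte content in the Sgk1 values was not tested.

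Nfkbia, which holds the inflammatory factor NF-kB in the cytoplasm, gave no common direction between its probe sets. The brighter probe set had 7.14, 6.96 and 7.53 in clozapine, 7.14, 7.16 and 7.18 in haloperidol and 7.15, 7.14 and 7.55 in control arrays. Clozapine 3 and control 3 stood above the other 7 arrays. The dimmer probe set had 5.89, 5.73 and 5.98 in clozapine, 5.61, 5.71 and 6.03 in haloperidol and 5.77, 5.69 and 5.70 in control arrays, where haloperidol 3 was highest. The clozapine differences were -0.07 ± 0.16 in the brighter and 0.15 ± 0.12 in the dimmer probe set, and the haloperidol differences -0.12 ± 0.16 and 0.07 ± 0.12 (SE, n = 3 per group). The lowest limma adjusted p of these 4 was 0.864, and both groups overlapped the controls in both probe sets.

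Klf9, a zinc finger transcription factor of mature neurons that responds to glucocorticoid and thyroid hormone, had the widest spread of the targets, and its probe sets ordered the animals differently. The brighter probe set, whose suffix marks probes that can match more than 1 transcript, had 8.55, 9.48 and 8.89 in clozapine arrays, 8.25, 9.81 and 8.67 in haloperidol arrays, and 8.80, 8.18 and 8.68 in control arrays. Haloperidol 2 and clozapine 2 stood above the rest. The dimmer probe set had 7.88, 7.45 and 7.01 in clozapine arrays, 7.28, 7.29 and 8.02 in haloperidol arrays, and 7.35, 7.23 and 6.65 in control arrays. Here haloperidol 3 and clozapine 1 were highest and control 3 lowest, as in Nr3c1. The clozapine differences in the brighter and the dimmer probe set were 0.42 ± 0.41 and 0.37 ± 0.30 and the haloperidol differences 0.35 ± 0.41 and 0.46 ± 0.30 (SE, n = 3 per group), and the lowest limma adjusted p of these 4 was 0.652. In the dimmer probe set the clozapine difference was 0.15 without clozapine 1 and also without control 3, and 0.59 without clozapine 3. The haloperidol difference there was 0.24 without control 3.

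The 2 arrays that were high in the brighter Klf9 probe set also stood apart in control probe sets. The antisense 5′ Gapdh probe set read 9.54 in haloperidol 2 and 8.52 in clozapine 2, against 5.14 to 6.35 in the other 7 arrays, and the 3 probe sets of 18S ribosomal RNA read 8.97 to 10.88 in haloperidol 2, against 2.23 to 3.69 elsewhere. With clozapine 2 and haloperidol 2 left out together, that probe set differed from control by 0.16 with clozapine and -0.10 with haloperidol. Fkbp5 was also highest in these 2 arrays, and without them its differences were 0.12 and 0.13. The part of these signals in the Klf9 and Fkbp5 values was not tested.

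The metallothioneins, small cysteine-rich proteins that bind zinc and copper and are made mainly by astrocytes in the brain, lay lowest in the haloperidol group. Mt2 had 9.92, 9.74 and 9.87 in clozapine arrays, 9.56, 9.62 and 9.62 in haloperidol arrays, and 10.11, 9.69 and 9.91 in control arrays. All 3 haloperidol arrays lay below every clozapine and control array. Haloperidol arrays lay clear below the controls in 19.4% of all tested probe sets, but in 2.84% of the 1864 brightest, with averages from 7.81 up, to which Mt2 belongs. Clozapine arrays lay clear above haloperidol arrays in 15.2% of all tested and 1.88% of the brightest. The haloperidol difference of Mt2 was -0.31 ± 0.11 (SE, n = 3 per group; -0.57 to -0.04), with an unadjusted p of 0.0277 and a limma adjusted p of 0.53, and it was the member probe set counted above at an unadjusted p under 0.05 (7.07% of all tested were lower at that level). Clozapine differed from control by -0.06 ± 0.11 (-0.33 to 0.20), and clozapine lay 0.24 ± 0.11 above haloperidol (-0.02 to 0.50; adjusted p = 0.915). The haloperidol difference was -0.20 without control 1 and -0.41 without control 2.

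Mt1 showed the same order only in part. It had 10.73, 9.91 and 10.30 in clozapine arrays, 10.11, 10.09 and 10.53 in haloperidol arrays, and 10.83, 10.30 and 10.35 in control arrays. The highest 3 values were those of control 1, clozapine 1 and haloperidol 3, the arrays with negative scores on the first principal component, and the groups overlapped. The haloperidol difference was -0.25 ± 0.24 (SE, n = 3 per group; -0.80 to 0.29; limma adjusted p = 0.779) and the clozapine difference -0.18 ± 0.24 (-0.73 to 0.37; adjusted p = 1). The haloperidol difference was -0.086 without control 1 and -0.40 without haloperidol 3, and the clozapine difference was -0.013 without control 1, -0.39 without clozapine 1 and 0.019 without clozapine 2. Control 1 and clozapine 1 were the 2 highest arrays in both metallothioneins. The 5 tested astrocyte markers of 6 listed had mean levels relative to the 9-array mean between -0.0191 and 0.0491 in clozapine, -0.124 and 0.109 in haloperidol and -0.137 and 0.222 in control arrays, and the dimmest of the 5, Slc1a2, read at least 5.99. With either drug 4 of the 5 lay below control and 1 above, with medians of -0.06 with clozapine and -0.14 with haloperidol. Of all tested probe sets 50.5% and 53.6% lay below. The 1 above was Aqp4, at 0.40 and 0.49, which ranged over 1.29 units. The other probe set of Gja1 also lay above, by 0.14 and 0.28. The part of astrocyte content in the Mt1 and Mt2 values was not tested. In RNA of whole tissue, fewer astrocytes and less RNA per astrocyte cannot be told apart. The 2 genes are close relatives, and how far their probes also read each other's RNA was not tested.

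**Figure D3:**
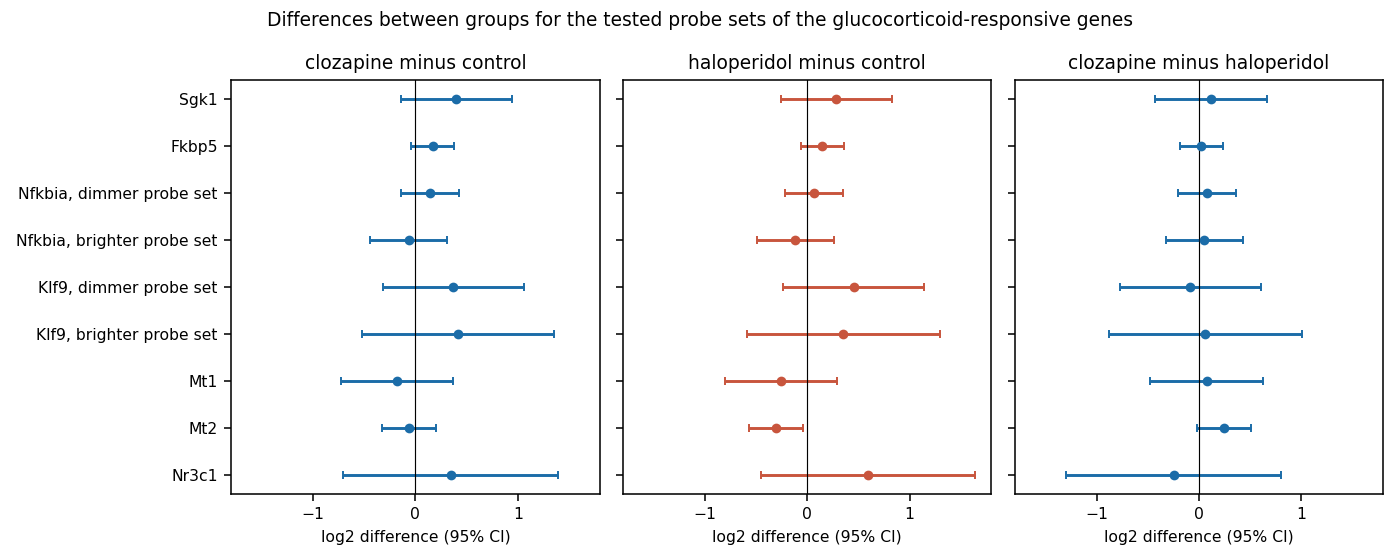
Log2 differences (x axis, points, with 95% confidence intervals as bars) of the 9 tested member probe sets in 3 panels, each drug minus control and clozapine minus haloperidol. All intervals include 0 except that of Mt2 for haloperidol minus control, from -0.57 to -0.04, and those of Nr3c1 and Klf9 are the widest.

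Tsc22d3 and Cdkn1a were below the level needed for a reading. Tsc22d3, which encodes the anti-inflammatory protein GILZ, had 2.17, 2.27 and 2.16 in clozapine arrays, 2.13, 2.15 and 2.06 in haloperidol arrays, and 2.18, 2.17 and 2.22 in control arrays. The probe sets of Cdkn1a, the cell cycle inhibitor p21, lay between 3.18 and 3.35 in the brighter and between 0.674 and 0.804 in the dimmer over all 9 arrays. In all 3 probe sets the haloperidol arrays lay below every control. The same was true of 4391 of the 4969 probe sets below the filter, or 88.4%, and these members did as most dim probe sets did. In a table made with GCRMA a value this low is close to background, and it does not show whether the transcript is present.

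The other genes of the pathway were given by lists. Of 20 other genes that glucocorticoids induce, 18 were on the array and 15 were tested. With clozapine 9 of the 15 lay above and 6 below the controls with a median of 0.01, with haloperidol 7 and 8 with a median of -0.04, and limma called 0 in either. At an unadjusted p under 0.05 there were 0 with clozapine, and 1 above and 1 below with haloperidol. Of all tested probe sets 0.939% and 9.12% were under it in either direction. Per1, a hormone-inducible gene that is also part of the daily clock, had 7.28, 7.46 and 7.03 in clozapine arrays, 7.19, 7.32 and 7.56 in haloperidol arrays, and 6.69, 7.08 and 6.95 in control arrays. It lay 0.35 ± 0.15 above control with clozapine and 0.45 ± 0.15 with haloperidol (limma adjusted p = 1 and 0.53). Only the haloperidol arrays were clear above the controls, as in 2.29% of all tested probe sets, and haloperidol 3 was the highest of the 9 arrays. Mertk, a receptor for the uptake of dying cells, lay 0.18 and 0.19 above with limma adjusted p of 1 and 0.606. Lcn2, an iron carrier of the acute phase response, was dim, with 3.65 in haloperidol arrays on average and 3.92 in controls, a difference of -0.27 (adjusted p = 0.53). Its haloperidol arrays lay clear below the control and the clozapine arrays, as in 19.4% and 15.2% of all tested probe sets. Glul, the glutamine synthetase of astrocytes, varied from 6.42 to 10.31 over the 9 arrays, with control 3 highest, and differed by -1.05 ± 0.81 with clozapine and -1.39 ± 0.81 with haloperidol. Controls 1 and 2 read 7.52 and 8.01, within the range of the drug arrays. Between the drugs, Dusp1, a phosphatase of MAP kinases, was 0.32 and Lcn2 0.28 higher with clozapine. Errfi1, a feedback inhibitor of the EGF receptor, differed by -0.32 in its brighter probe set and by -0.11 in its other one.

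Of 15 chaperones, cofactors and steroid enzymes around the receptor, 9 were on the array and 7 were tested. With clozapine 2 lay above and 5 below the controls, and with haloperidol 1 and 6, with medians of -0.06 and -0.11 and 0 called by limma. At an unadjusted p under 0.05 there was 1 above with clozapine, and 1 above and 2 below with haloperidol, beside 0.939% and 9.12% of all tested probe sets in either direction. Hsd11b1, the enzyme that regenerates active hormone inside cells, had 5.68, 5.47 and 5.49 in clozapine arrays, 5.46, 5.53 and 5.71 in haloperidol arrays, and 5.48, 5.03 and 5.06 in control arrays. Control 1 overlapped both drug groups, and the differences were 0.36 ± 0.14 and 0.38 ± 0.14 (SE, n = 3 per group), with unadjusted p of 0.0328 and 0.0263 and limma adjusted p of 1 and 0.53. Stip1, a co-chaperone that joins Hsp70 to Hsp90, averaged 8.59 ± 0.29 in haloperidol arrays and 8.95 ± 0.02 in controls (SD, n = 3), a difference of -0.36 (adjusted p = 0.53). Fkbp4, the co-chaperone that acts against Fkbp5 in the receptor complex, differed by -0.36 with haloperidol in its brighter probe set but by 0.00755 in its other one. Hspa8 and Hsp90aa1, the Hsp70 and Hsp90 chaperones tested, differed by -0.13 and -0.11 with clozapine and by -0.10 and -0.11 with haloperidol. Between the drugs Stip1 differed by 0.30 and the coactivator Ncoa1 by 0.09, and Fkbp4 by 0.26 in its brighter probe set but by 0.00694 in its other one.

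**Figure D4:**
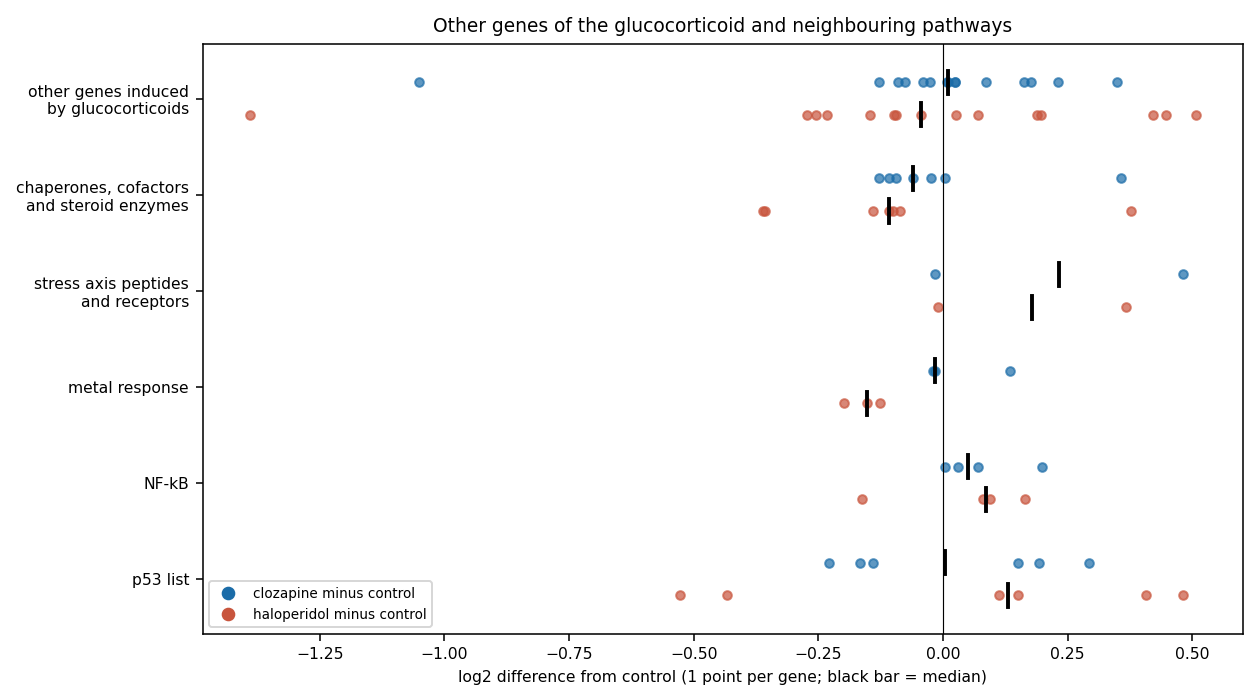
Log2 differences from control (x axis) of the tested genes of 6 lists around the glucocorticoid pathway (rows), with 1 point per gene, clozapine above haloperidol in each row, and the median as a black bar. Glul stands far to the left in the top row at -1.05 with clozapine and -1.39 with haloperidol, and the next point from the left is Cdkn1b with haloperidol at -0.53. Glul read 10.31 in control 3 but 7.52 and 8.01 in controls 1 and 2.

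Of the stress axis genes, 2 of 6 were tested. Avp, the vasopressin precursor, lay 0.48 ± 0.25 above control with clozapine and 0.37 ± 0.25 with haloperidol, and Crhr1, a receptor of corticotropin-releasing hormone, at -0.02 and -0.01. Clozapine 1 read 7.085 in Avp, against 6.22 and 6.25 in the other clozapine arrays. The highest haloperidol value of Avp, 6.65, was in haloperidol 3. Pomc, the precursor of corticotropin, read 10.31 in haloperidol 3 and at most 2.30 in the other 8 arrays. That array also had the pituitary hormone genes Gh at 12.57 and Prl at 11.76, and it had the highest Nr3c1 and the highest value of the dimmer Klf9 and the dimmer Nfkbia probe set. The part of pituitary tissue in these 3 values, or in the Avp and Per1 values of that array, was not tested. Without haloperidol 3 the haloperidol differences were 0.19 for Nr3c1, 0.21 for that Klf9 probe set and -0.06 for that Nfkbia probe set.

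All 3 genes of the metal response list lay below control with haloperidol, as did 53.6% of all tested probe sets, and none passed the test. Mt3, the neuronal and astrocytic metallothionein, differed by -0.20 ± 0.24, the metal-sensing factor Mtf1 by -0.13 and the zinc exporter Slc30a1 by -0.15 ± 0.08. Mtf1, at 3.86 to 4.18, and Slc30a1, at 4.15 to 4.41, were dim, and in both the haloperidol arrays lay clear below the controls, as in 19.4% of all tested probe sets. With clozapine the differences were 0.14, -0.02 and -0.02, and between the drugs 0.33, 0.11 and 0.14. Of the NF-kB genes 4 of 11 were tested, with 4 above control with clozapine and 3 above with haloperidol, and Nfkbib, a relative of Nfkbia, lay 0.20 and 0.16 above. Rel differed by -0.16 with haloperidol, but it read 3.24 to 3.61, around the filter level, and haloperidol arrays lay clear below the controls in it as in 88.4% of probe sets under that level. Rela lay 0.07 and 0.08 above control and Ikbkg 0.03 above with clozapine, and between the drugs Rel differed by 0.17, Ikbkg by -0.06 and Nfkbib by 0.04. Of a list around p53 6 of 8 genes were tested, with 3 above with clozapine and 4 with haloperidol. Ccng1, an early p53 target, lay 0.29 and 0.48 above, Btg2, an antiproliferative factor, at -0.23 and -0.43, and Cdkn1b, a cell cycle inhibitor related to Cdkn1a but not an established p53 target, at -0.14 and -0.53. Perp, a membrane protein of cell death and adhesion, lay 0.41 above with haloperidol and Gadd45a, a stress and repair factor, 0.19 above with clozapine. Perp read 5.13 in haloperidol 3, the array high in pituitary hormone genes, against 4.67 and 4.35 in haloperidol 1 and 2. The part of pituitary tissue in that Perp value was not tested. Between the drugs Cdkn1b differed by 0.39, Mdm2, which degrades p53, by -0.32 and Perp by -0.26. Limma called 0 genes of these 3 lists, and the number at an unadjusted p under 0.05 was also 0 in both comparisons with control.

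Across the 9 arrays, the genes whose values ran most like each member's came from outside the list. Pearson's r and Spearman's rho are given as a description over n = 9, and the values were picked as the highest of all named probe sets. For Sgk1 they were Ugcg, a glycosphingolipid enzyme (r = 0.972, rho = 0.9), and Eps8 (r = 0.948, rho = 0.867). For Fkbp5 they were Atg7 (r = 0.909, rho = 0.619) and Sacm1l (r = 0.905, rho = 0.603). Nr3c1 ran with Idh3g (r = 0.989, rho = 1) and Rpl6 (r = 0.964, rho = 0.983), and the dimmer Klf9 probe set with Tomm70a (r = 0.978, rho = 0.983) and Adh5 (r = 0.975, rho = 0.9). Mt1 ran with Ppif (r = 0.956, rho = 0.967) and Snrnp40 (r = 0.929, rho = 0.917), and Mt2 with Chordc1 (r = 0.876, rho = 0.75) and Dcaf8 (r = 0.861, rho = 0.767). The brighter Klf9 probe set ran with Fam216a (r = 0.937, rho = 0.917) and Msn (r = 0.932, rho = 0.883). The brighter Nfkbia probe set ran with Dnajc3 (r = 0.99, rho = 0.883) and Ifnar2 (r = 0.941, rho = 0.717), and the dimmer with Nagk (r = 0.947, rho = 0.85) and Coq4 (r = 0.939, rho = 0.917). No member was among the 2 closest genes of another member. Members held only 9 of the 6708 tested probe sets with 1 symbol, so this does not show whether the members ran together. The arrays share the axis described above.

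The tissue label was checked against markers. Of 6 neuronal markers 5 were tested, and the dimmest reading of any was 8.57, in Syt1. Of 3 forebrain markers 2 were tested, Neurod6, between 5.61 and 6.41, and Camk2a, given above. Their mean level relative to the 9-array mean lay between 0.0183 and 0.862 in clozapine, 0.0412 and 0.421 in haloperidol and -1.68 and 0.701 in control arrays, with controls 2 and 3 below every drug array. Camk2a ranged over 5.55 units and Neurod6 over 0.79, so this mean mostly followed Camk2a. In Neurod6 alone control 2 was the lowest array and control 3 the highest. The cerebellar markers Cbln1 and Gabra6 read at most 2.73 and 3.15. Pcp2, also listed as a cerebellar marker, lay between 7.07 and 7.46 in its brighter probe set and between 1.08 and 1.24 in its other one. Per-array medians lay between 4.02 and 4.21, and correlations between pairs of arrays between 0.947 and 0.994.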

How the data were processed

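RNA from the forebrain of 9 mice, 3 per treatment, was hybridised to 1 array each without pooling, per the labels' protocols. The authors deposited log2 values, and the submitters' processing notes name GCRMA, a method that corrects background by probe sequence, normalises arrays to each other and summarises each probe set. Its version is not given in the sources used here. GCRMA holds dim probe sets in a narrow band, where small shared shifts can separate groups. The number of arrays limits the precision.

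Arrays were grouped by title. Of 12488 probe sets, 66 Affymetrix controls entered no test. Of the other 12422, 10833 had 1 symbol, 396 several and 1193 none. Symbols were updated by Entrez identifier from RefSeq (GRCm38.p6), where 10817 were found. Probe sets averaging above the 40th percentile, 3.45, were tested (7453). Limma 3.58.1 in R 4.3.3 fitted 1 mean per treatment to all 9 arrays (lmFit, eBayes, 6 residual degrees of freedom, two-sided, Benjamini-Hochberg over all tested). A gene in a list was represented by its brightest probe set. Named were all members, the 3 genes of each context list with the lowest p per comparison, the 2 most like genes per member probe set, and genes that other results needed. The smallest p of an exact permutation test of 3 arrays against 3 being 0.1, none was used. Alternatives covered the filter, a floor, scaling, the prior, array weights, the arrays fitted, the replicate block, probe set suffixes and arrays left out. The fit was tested on simulated data with 200 changed probe sets. Members, lists and tests were chosen with earlier results of these data known. The comparison with the brightest probe sets was added after values were seen.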

Additional observations from a re-analysis of the deposited data

How the results depend on the processing

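Limma called 0 probe sets in each comparison under all 21 settings tried, of which 19 were planned and 2, leaving out clozapine 1, haloperidol 3 and control 1 together or clozapine 2 and haloperidol 2 together, were chosen after seeing the data. Member values, with the brightest probe set for each gene, numbered 435, of which 410 kept their direction and 25 changed sign. Of the 25, 16 changed with a single array left out. Of 21 pairs of a gene and a comparison, 10 kept their sign throughout. Many of the 410 could not change. A difference stays as it is under another filter or prior, without special suffixes, or with the replicate block. It also stays when only the arrays compared are fitted or an array of the third group is left out. The lowest adjusted p of any member was 0.0836, for Fkbp5 with haloperidol under array weights, where 1891 probe sets had an unadjusted p under 0.05, against 680 with equal weights. Those counts for haloperidol against control ranged from 161 without control 2 to 1944 without a filter, and were 182 above the 60th percentile, 205 without haloperidol 3, 244 without the 3 arrays and 378 with each array centred on its median. For clozapine against control they ranged from 36 above the 60th percentile to 926 under array weights. The counts are of 12422 probe sets without a filter, 4969 above the 60th percentile and 7453 in the other settings named here, and are not shares. The haloperidol difference of Mt2 lay between -0.41 and -0.12 and passed an unadjusted p of 0.05 in 13 of 21 settings. Of the probe sets at an unadjusted p under 0.05 for clozapine minus haloperidol, 222 were higher and 49 lower, but 25 and 29 with each array centred and 47 and 60 after quantile normalization. For clozapine minus control these splits were 33 and 37, 19 and 43, and 31 and 66.

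Array weights changed the sign of the clozapine differences of Nfkbia (0.11), Mt1 (0.029) and Mt2 (0.14), of the haloperidol difference of Nfkbia (0.014) and of clozapine minus haloperidol in Klf9 (-0.00522). Without clozapine 2 and haloperidol 2 the clozapine differences of Nfkbia and Mt1 were 0.057 and 0.019, the haloperidol difference of Klf9 was -0.10 and clozapine minus haloperidol in Fkbp5 was -0.014. With single arrays left out, the clozapine difference ranged from -0.22 to 0.068 for Nfkbia, -0.39 to 0.019 for Mt1 and -0.17 to 0.038 for Mt2. The haloperidol difference ranged from -0.19 to 0.018 for Nfkbia and -0.10 to 0.69 for Klf9. Clozapine minus haloperidol ranged from -0.15 to 0.34 for Sgk1, -0.030 to 0.049 for Fkbp5, -0.11 to 0.17 for Nfkbia, -0.27 to 0.51 for Klf9, -0.13 to 0.27 for Mt1 and -0.56 to 0.15 for Nr3c1. The cause of these changes was not tested. Nfkbia and Klf9 are given here by their brighter probe sets. In the dimmer Nfkbia probe set the ranges were 0.089 to 0.22 with clozapine, -0.056 to 0.15 with haloperidol and -0.0058 to 0.20 between the drugs. In the dimmer Klf9 probe set they were 0.15 to 0.59, 0.21 to 0.59 and -0.30 to 0.16. Nr3c1 did not pass the 60th percentile filter, and the brighter Klf9 probe set left the table with the special suffixes.

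With the replicate number as a block, 0 probe sets were called. In the 3 comparisons 60, 665 and 333 had an unadjusted p under 0.05. The haloperidol difference of Mt2, -0.31, had a p of 0.0301 in limma there. Since every number occurs once in each group, the block cannot change a difference, only its p. Deviations from the group means of same-numbered arrays correlated between -0.597 and 0.697 over probe sets, without a common sign. Arrays of different numbers were not set beside them, so whether the numbers pair the samples was not settled. With 3 arrays a group, the intervals of Nr3c1, Klf9, Sgk1 and Mt1 span more than 1 log2 unit. Small differences in probe sets near background are not readable as changes in RNA.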
